A study of Glycine max with 34 samples.

Results

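The WRKY transcription factor genes of soybean (Glycine max) were followed through the seed at early maturation, when the embryo has formed its organs and begins to fill with reserves. The array's probe-to-gene table ties 103 soybean probe sets to a single gene whose symbol is WRKY and a number, and these belong to 52 genes. A gene was kept where a probe set exceeded the background on at least 2 of the 34 arrays, and was read by its brightest such probe set. This left 37 WRKY genes of the 5527 genes that passed in the same way, and all 37 carry the same symbol in RefSeq. The other 15 genes were near or under the background: WRKY2, WRKY5, WRKY6, WRKY17, WRKY19, WRKY21, WRKY25, WRKY38, WRKY44, WRKY46, WRKY53, WRKY55, WRKY62, WRKY63 and WRKY64. Of these, 4 exceeded it on 1 array, with highest signals of 174.9 to 211.7, and 11 on none. WRKY34 was just inside the rule, with 2 arrays above the background, and WRKY8 and WRKY30 followed with 3 each.

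The plants were of the cultivar Asgrow A3237, grown at 22 °C under 16 h of light and 8 h of dark, and the seeds were 6.0 to 7.0 mm long. Sections of fixed, paraffin-embedded seeds were dissected by laser into 16 compartments. The embryonic axis gave 6 (epidermis, plumule, parenchyma, root meristem, shoot meristem and vascular bundle). The cotyledon gave 5 (abaxial and adaxial epidermis, abaxial and adaxial parenchyma, and vascular bundle). The seed coat gave 5 (aleurone, hourglass layer, hilum, palisade layer and parenchyma). Whole seeds, ground rather than dissected, were the last group, for 17 in all. Each group had 2 biological replicates on an array each, all of 1 genotype and stage and with no treatment. How many seeds made up a replicate, and whether compartments share seeds, is not stated in the labels, so p-values measure the spread between these samples.

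WRKY proteins are DNA-binding factors found mainly in plants and named for the amino acids at the start of their binding domain, which ends in a zinc finger. They bind W-box elements in promoters, including those of other WRKY genes, and are best known for switching defence genes on or off after attack, and for roles in wounding, drought and abscisic acid responses. Some act in seeds: in Arabidopsis TTG2 is needed for seed coat pigment and mucilage and MINI3 for endosperm growth, and in cereals WRKY factors repress gibberellin responses in aleurone cells. The soybean numbers do not follow those of Arabidopsis, so equal numbers in the 2 species do not mark related genes. The aleurone, although dissected with the seed coat, is the outer layer of the endosperm.

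Signals are linear probe set intensity, scaled by the authors to one mean per array. The background of an array was the 95th percentile of the probe sets for 2 soybean pathogens on it, and ran from 104.3 to 263.9 (median 170.2). Per array, 44.2% to 59.8% of all 37593 soybean probe sets, taken before the filter, exceeded it. Of the 37 WRKY genes 45.9% to 75.7% did, lowest in an hourglass array and highest in a hilum array. The 37 had already passed the filter and were read by their brightest probe set, so the 2 shares cannot be compared. Replicate arrays correlated at r = 0.870 to 0.956 over all probe sets tested. Hybridization controls, added to each sample in fixed amounts, stood at 1.08 to 3.33 times the median array in the axis, 0.578 to 1.46 in the cotyledon, 0.613 to 2.30 in the seed coat and 0.307 to 0.356 in whole seeds. Of 10 storage protein and trypsin inhibitor genes that mark cotyledon storage cells, 7 were highest in the cotyledon parenchyma of either side, such as the glycinin gene GY1 (mean 59160.5, abaxial). KTI-3 (55415) and KTI-2 (24459.7) were highest in the axis parenchyma and ranked 14 and 16 of 17 groups in the cotyledon adaxial parenchyma, and GY7 was highest in the aleurone (695). The peroxidase gene Ep was highest in the hourglass layer (39541) and ANR1 of proanthocyanidin synthesis in the palisade (44713). SCB1, a marker of seed coat parenchyma, was at 59161 there but higher in the hourglass layer (93968). Of 7 sieve element occlusion genes, 6 were highest in the seed coat parenchyma. The other 1, SEOS, was highest in the axis vascular bundle, but below the background on both arrays there. No shoot meristem marker was measured.

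**Figure D1:**
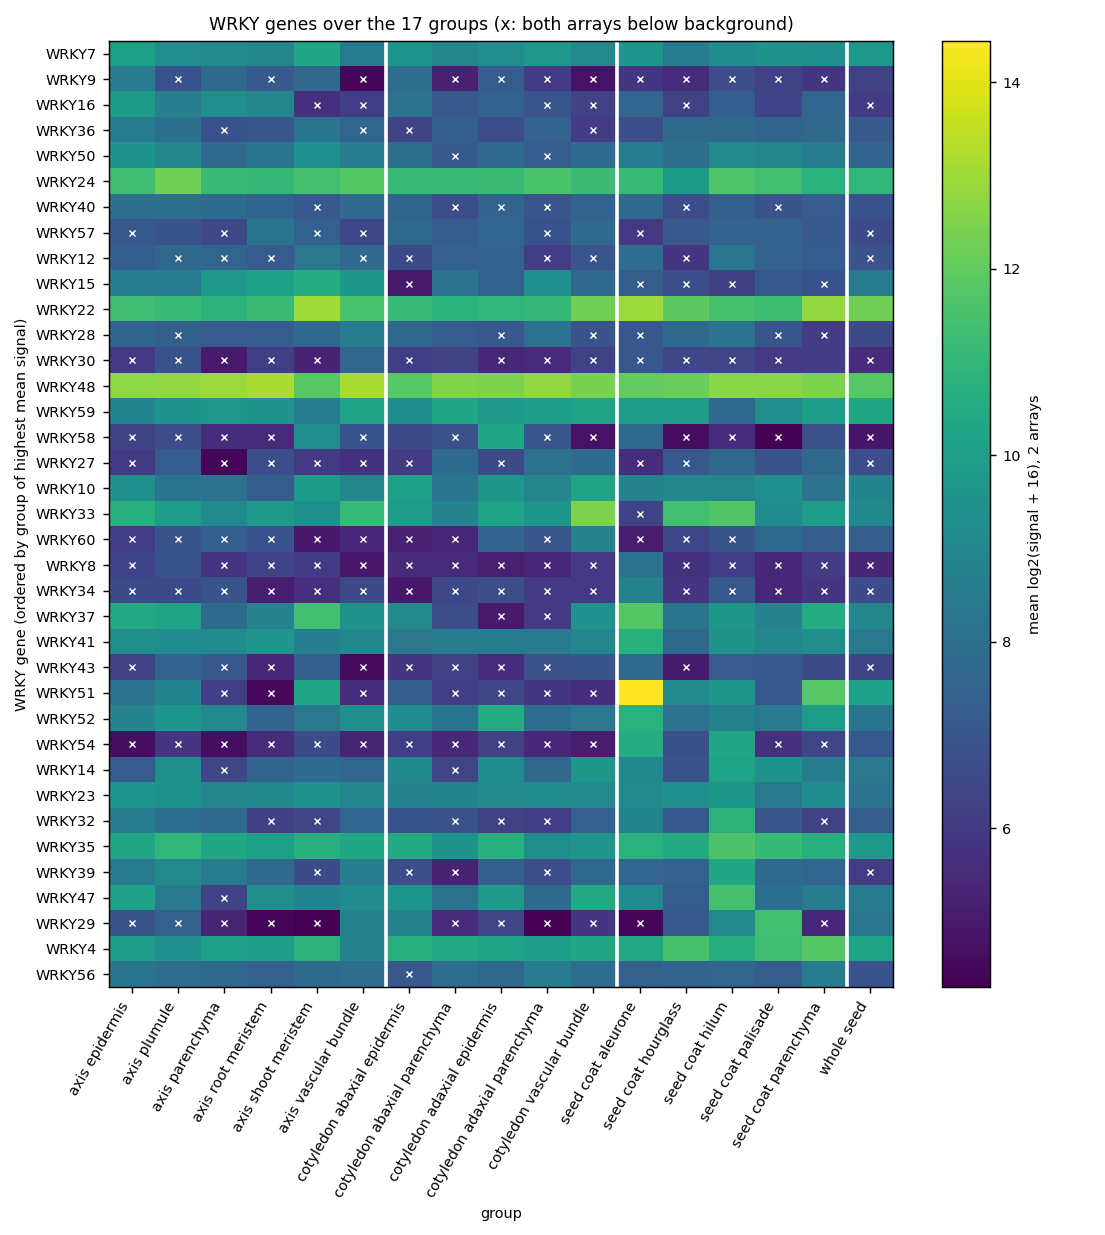
Mean log2(signal + 16) of the 37 WRKY genes (rows, ordered by the group of the highest mean signal) in the 17 groups (columns; white lines part the axis, cotyledon, seed coat and whole seed), 2 arrays each. Crosses mark groups with both arrays below the background; WRKY48, WRKY22 and WRKY24 carry no cross, and WRKY34 lacks one in the aleurone only.

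Breadth of expression divided the family. Above the background on all 34 arrays were 7 genes, WRKY4, WRKY7, WRKY22, WRKY23, WRKY24, WRKY35 and WRKY48. Another 6 exceeded it on 30 to 33 arrays (WRKY10, WRKY33, WRKY41, WRKY47, WRKY52 and WRKY59), and 16 on 10 to 29. The remaining 8 exceeded it on fewer than 10 arrays: WRKY8, WRKY9, WRKY30, WRKY34, WRKY43, WRKY54, WRKY58 and WRKY60. By the limma F test 25 of the 37 differed among the 16 compartments (adjusted p below 0.05, Benjamini-Hochberg over 28441 soybean probe sets), against 63.4% of all probe sets tested. The 12 that did not pass were WRKY7, WRKY8, WRKY12, WRKY23, WRKY28, WRKY30, WRKY34, WRKY36, WRKY40, WRKY43, WRKY56 and WRKY57. The F calls of WRKY4 (adjusted p = 0.0160), WRKY27 (0.0234) and WRKY39 (0.0269) each rested on single arrays. For WRKY4 it ended when axis vascular bundle replicate 1 was left out (adjusted p = 0.0540) or the hybridization controls were adjusted for (0.0731). WRKY27 was not called with that adjustment (0.137) or without either axis parenchyma array (0.055 and 0.079), and WRKY39 without either array of the cotyledon abaxial parenchyma (0.0677 and 0.0698) or of the hilum (0.0742 and 0.0923).

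The aleurone and the hilum held the highest level of more WRKY genes than any other compartment. By the mean log2 value, 8 of the 37 (21.6%) were highest in the aleurone, where 9.24% of all probe sets tested were highest, and 6 (16.2%) in the hilum, against 8.36%. Of the aleurone genes, WRKY34 and WRKY8 would not have passed the background filter without their aleurone arrays, so their peaks were built into their choice. WRKY8, WRKY34 and WRKY43 also did not pass the F test. None was highest in the hourglass layer, the axis parenchyma or the cotyledon abaxial epidermis, against 9.75%, 4.18% and 4.13% of all probe sets. The cotyledon vascular bundle was the peak of 3 (8.11%, against 3.56%). By organ the WRKY genes spread much as other probe sets did, with 43.2% highest in the seed coat against 41.2%, 37.8% in the axis against 37.3% and 18.9% in the cotyledon against 21.5%. These shares describe the 37 genes and were not tested.

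**Figure D2:**
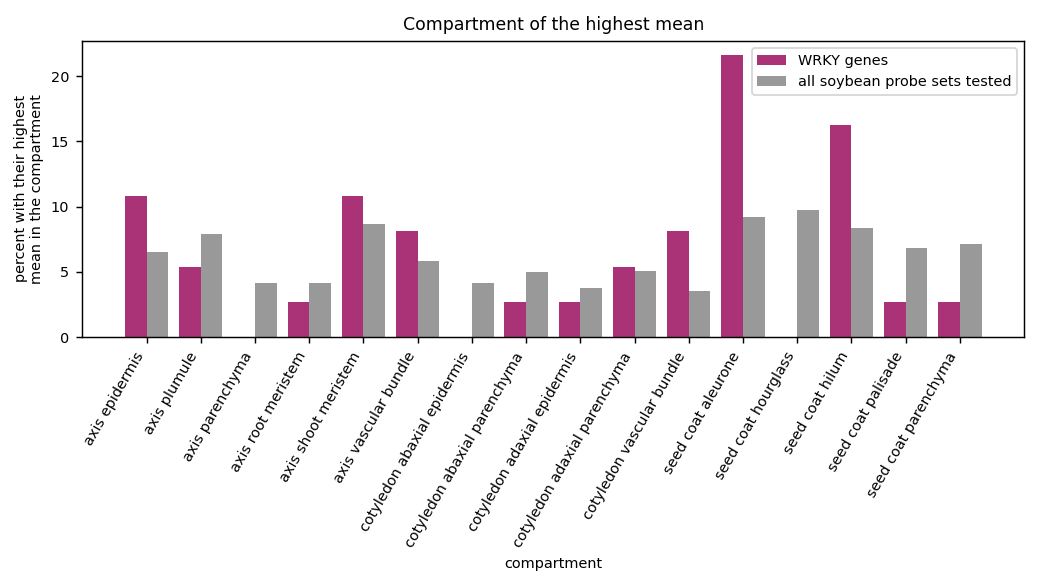
Percent of the 37 WRKY genes and of the 28441 soybean probe sets tested whose mean log2 value was highest in each of the 16 compartments (x axis). The aleurone holds 21.6% of the WRKY genes and the hilum 16.2%, and 3 compartments hold none. The aleurone share includes WRKY34 and WRKY8, which passed the background filter only because of their aleurone arrays.

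A gene was called enriched in a compartment where its mean exceeded the mean of the other 15 by a log2 difference of at least 1 with an adjusted p below 0.05, and where both arrays exceeded all 30 arrays of the other compartments. This held for 13 of the 37 WRKY genes, against 26.0% of all probe sets tested. There were 4 each in the aleurone (against 2.81% of probe sets) and the hilum (2.47%), 2 in the cotyledon vascular bundle (1.02%) and 1 each in the palisade (2.75%), the shoot meristem (1.75%) and the plumule (0.851%). One of them, WRKY34, had passed the background filter only through its aleurone arrays, so its aleurone peak was built into its choice; without it 12 genes were enriched, 3 of them in the aleurone. Log2 differences are of log2(signal + 16), which understates changes of dim genes. Folds are ratios of the means on that log2 scale, in which a few bright compartments weigh less than in a mean of signals, and "at least" marks a fold whose dimmer side was mostly below the background and was raised to it.

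WRKY51 had the largest F statistic of the family. Its aleurone signals were 26832 and 18484. The seed coat parenchyma (3258 and 3908), the shoot meristem (1077 and 1349.6), the hilum (841 and 765) and the plumule (408 and 508) were lower but above the background on both arrays. The hourglass arrays disagreed (175 and 1698), as did those of the axis epidermis (154 and 477) and the cotyledon abaxial epidermis (262 and 74.2). Palisade signals were 98.6 and 148, so that 1 array exceeded the background. The other compartments were below the background on both arrays: the axis parenchyma (50.5 and 62.2), root meristem (10.8 and 4.6) and axis vascular bundle (14.9 and 64.4), and the cotyledon adaxial epidermis (52.5 and 94.4), abaxial parenchyma (63 and 47), adaxial parenchyma (39.7 and 50.6) and vascular bundle (8.7 and 81.8). Both aleurone arrays stood above every other array, and the mean was 6.32 times that of the next compartment. Against the other 15 compartments the log2 difference was 6.92 ± 0.54 (SE, 2 arrays per group) with a limma adjusted p of 1.69e-10, and the mean signal (22658 against 528) was 42.9 times as high. Its 2 dimmer probe sets were enriched in the aleurone too, by 3.46 ± 0.60 (adjusted p = 7.85e-05) and 3.74 ± 0.57 (adjusted p = 1.31e-05).

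WRKY54, whose overexpression in Arabidopsis has been linked to salt and drought tolerance, had 2 peaks. It was at 1997 and 1133 in the aleurone and 2166 and 729 in the hilum. The hourglass layer (36.6 and 218) and whole seeds (119 and 125) had 1 array each above the background. All other compartments were below it on both arrays: the seed coat parenchyma (51.9 and 90.1) and palisade (27.3 and 55.5), the shoot meristem (55.6 and 124), root meristem (6.8 and 87.2), plumule (45.2 and 42.9), axis vascular bundle (51.9 and 8.3), axis parenchyma (5.3 and 14.1) and axis epidermis (4.3 and 13.7). In the cotyledon the values were 34.9 and 108 in the adaxial epidermis, 72.3 and 42.3 in the abaxial epidermis, 44.6 and 14.5 in the adaxial and 23.6 and 34.5 in the abaxial parenchyma, and 12.8 and 23.1 in the vascular bundle. The aleurone and hilum arrays overlapped each other and lay apart from all others. Having 2 peaks, the gene was not called enriched in 1 compartment.

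Beside WRKY51, the aleurone was the peak of WRKY41, WRKY52 and WRKY34. The further probe sets of WRKY52 and WRKY34 were not enriched there. WRKY41 was at 1243 and 2243 there, then at 644 and 864 in the root meristem, 569 and 905 in the hilum, 495 and 819.6 in the axis epidermis and 409.9 and 866 in the seed coat parenchyma. Its other group means ran from 198 in the hourglass layer to 571 in the plumule, with 567 in the axis parenchyma, 510.2 in the axis vascular bundle, 492 in the palisade, 473 in the cotyledon vascular bundle, 394 in the shoot meristem, and 308 to 365 in the cotyledon epidermis and parenchyma of both sides. The aleurone log2 difference was 1.84 ± 0.30 (3.58-fold, adjusted p = 3.09e-05 by limma).

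WRKY52 was at 1751 and 1759.5 in the aleurone and close behind at 1339 and 1642 in the cotyledon adaxial epidermis. It was at 1274 and 716 in the seed coat parenchyma and 741 and 808 in the plumule. Elsewhere its group means were 670.4 in the axis vascular bundle, 588 in the cotyledon abaxial epidermis, 532 in the axis parenchyma, 516 in the axis epidermis, 435 in the hilum and 357 in the palisade. They were 337 in the cotyledon vascular bundle, 323 and 232 in the cotyledon abaxial and adaxial parenchyma, 308 in the shoot meristem, 268 in the hourglass layer and 218 in the root meristem. The aleurone difference was 1.98 ± 0.46 (3.93-fold, adjusted p = 0.00167 by limma). It passed the test under all scalings, but with 75th percentile scaling (1.93) or quantile normalization (1.90) an aleurone array no longer exceeded every other array.

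WRKY34 was above the background on its 2 aleurone arrays alone (856 and 199). Its next group means were 121 in the axis parenchyma, 119.9 in the hilum, 103 in the plumule and 96.3 in the axis epidermis, and all others were between 19.6 (cotyledon abaxial epidermis) and 88.8 (cotyledon adaxial epidermis). The difference of 2.62 ± 0.63 (at least 2.30-fold, adjusted p = 0.00234 by limma) rested on 1 array. Without aleurone replicate 1 it was 1.61 (adjusted p = 0.215), and the hybridization controls of that array were at 2.30 times the median. With 75th percentile scaling the difference was 2.57 but 1 aleurone array no longer exceeded all others. Without the 6 arrays with the brightest controls it was 1.63 (adjusted p = 0.163).

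WRKY37 was also highest in the aleurone (4518 and 2635), but overlapped the shoot meristem (2784 and 2693). It was at 1846 and 1255 in the seed coat parenchyma, 1055 and 1764 in the axis epidermis and 1552 and 917 in the plumule. The hilum (901 and 696), cotyledon vascular bundle (919 and 487), axis vascular bundle (737 and 636) and cotyledon abaxial epidermis (359.8 and 737) came next, and the root meristem (274 and 658), palisade (325 and 572) and hourglass layer (238 and 332) were lower. The axis parenchyma (129 and 359) and cotyledon abaxial parenchyma (196 and 36.7) had 1 array each above the background. The cotyledon adaxial parenchyma (15.3 and 111) and adaxial epidermis (15.8 and 17.1) had none. By this probe set the arrays of the 2 epidermal layers of the cotyledon did not overlap, and the abaxial one was the higher. That difference was not tested, and the second probe set of WRKY37 did not pass the F test.

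In the hilum, the scar where the seed was joined to the pod, WRKY32, WRKY47, WRKY14 and WRKY35 were enriched. WRKY32 was at 1863 and 1845 there. The aleurone arrays disagreed (957 and 217), the axis epidermis was at 292 and 436, and 7 compartments had 1 array each above the background, namely the plumule (155 and 343), axis vascular bundle (326 and 95.1), axis parenchyma (212 and 173), cotyledon vascular bundle (211 and 109.8), cotyledon abaxial epidermis (192 and 47.2), palisade (161 and 73.1) and hourglass layer (105 and 157). Both arrays were below it in the cotyledon abaxial (74.6 and 123) and adaxial parenchyma (43.1 and 69.2), the adaxial epidermis (18.3 and 155), the seed coat parenchyma (52.1 and 73.1), the shoot meristem (21.6 and 173) and the root meristem (12 and 179). The hilum difference was 3.72 ± 0.65 (at least 8.67-fold, adjusted p = 6.26e-05 by limma). A second probe set of WRKY32 read 2675 to 3042 in the hilum and at most 330.1 elsewhere, with a difference of 6.00 ± 0.63 (adjusted p = 2.72e-08).

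WRKY47 had the widest set of calls. Its hilum signals were 3075 and 2546, above the cotyledon vascular bundle (1544 and 1302), axis epidermis (1351 and 867), cotyledon abaxial epidermis (1106 and 535) and cotyledon adaxial epidermis (882 and 869.9). Replicates disagreed in the root meristem (993 and 384), shoot meristem (212 and 969.7), aleurone (354 and 804) and axis vascular bundle (399.6 and 816). The seed coat parenchyma (335 and 363), plumule (276 and 353), palisade (207 and 262) and hourglass layer (115 and 174) were lower. Parenchyma was dim in both organs, at 213 and 327 in the cotyledon abaxial, 89.4 and 447 in the cotyledon adaxial and 176 and 19.1 in the axis parenchyma. The hilum difference was 2.73 ± 0.52 (6.63-fold, adjusted p = 0.000199 by limma).

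WRKY14 was at 1227 and 1026 in the hilum, followed by the cotyledon vascular bundle (875 and 724), palisade (653 and 725), plumule (712 and 581), cotyledon adaxial epidermis (471 and 729), cotyledon abaxial epidermis (586 and 446) and aleurone (517 and 503). The seed coat parenchyma was at 412 and 311. Replicates lay far apart in the axis vascular bundle (45.5 and 586), axis epidermis (328 and 47.7), hourglass layer (25.1 and 332) and shoot meristem (145 and 315). The root meristem (193 and 147), axis parenchyma (33.2 and 148), cotyledon abaxial parenchyma (156 and 26.1) and adaxial parenchyma (209 and 164) were low on both arrays. The hilum difference of 2.02 ± 0.65 (4.06-fold, adjusted p = 0.0215 by limma) was 1.89 without hilum replicate 1 (adjusted p = 0.19) and 2.15 without hilum replicate 2 (adjusted p = 0.131).

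WRKY35 was above the background on every array. It was at 3537 and 2783 in the hilum, 1886 and 2518 in the palisade and 2174 and 1820.1 in the plumule. Its other group means fell in order through the cotyledon adaxial epidermis (1853), aleurone (1827), shoot meristem (1605), seed coat parenchyma (1603), cotyledon abaxial epidermis (1474), hourglass layer (1421), axis vascular bundle (1402), axis parenchyma (1317), axis epidermis (1310.2) and root meristem (1115). The lowest were the cotyledon vascular bundle (769), abaxial parenchyma (725) and adaxial parenchyma (644). Neighbours in this order from the palisade down overlapped. The hilum difference of 1.26 ± 0.31 (2.39-fold, adjusted p = 0.00299 by limma) was 1.08 without hilum replicate 1 (adjusted p = 0.102).

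WRKY29 marked the palisade, the outer sclereid layer of the seed coat, at 2519 and 2809. The hilum (434 and 623), axis vascular bundle (343 and 506) and cotyledon abaxial epidermis (476 and 372) were the only other compartments with both arrays above the background, and the hourglass layer had 1 (79.1 and 199). The rest were below it: the plumule (178 and 132), axis epidermis (110.4 and 96.9), axis parenchyma (3.3 and 71.7), root meristem (2.5 and 8.9), shoot meristem (3.2 and 4.4), cotyledon adaxial epidermis (106 and 44.3), cotyledon vascular bundle (26.1 and 69.4), cotyledon abaxial parenchyma (14.8 and 52.6), cotyledon adaxial parenchyma (3.4 and 3.9), seed coat parenchyma (25.7 and 29.9) and aleurone (11.1 and 1.4). Palisade arrays stood above all others, and the mean was 5.04 times that of the hilum. The difference was 5.11 ± 0.46 (at least 11.8-fold, adjusted p = 1.64e-09 by limma). A second probe set read 2817 to 3010 in the palisade and gave 5.60 ± 0.55 (adjusted p = 7.53e-09).

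**Figure D3:**
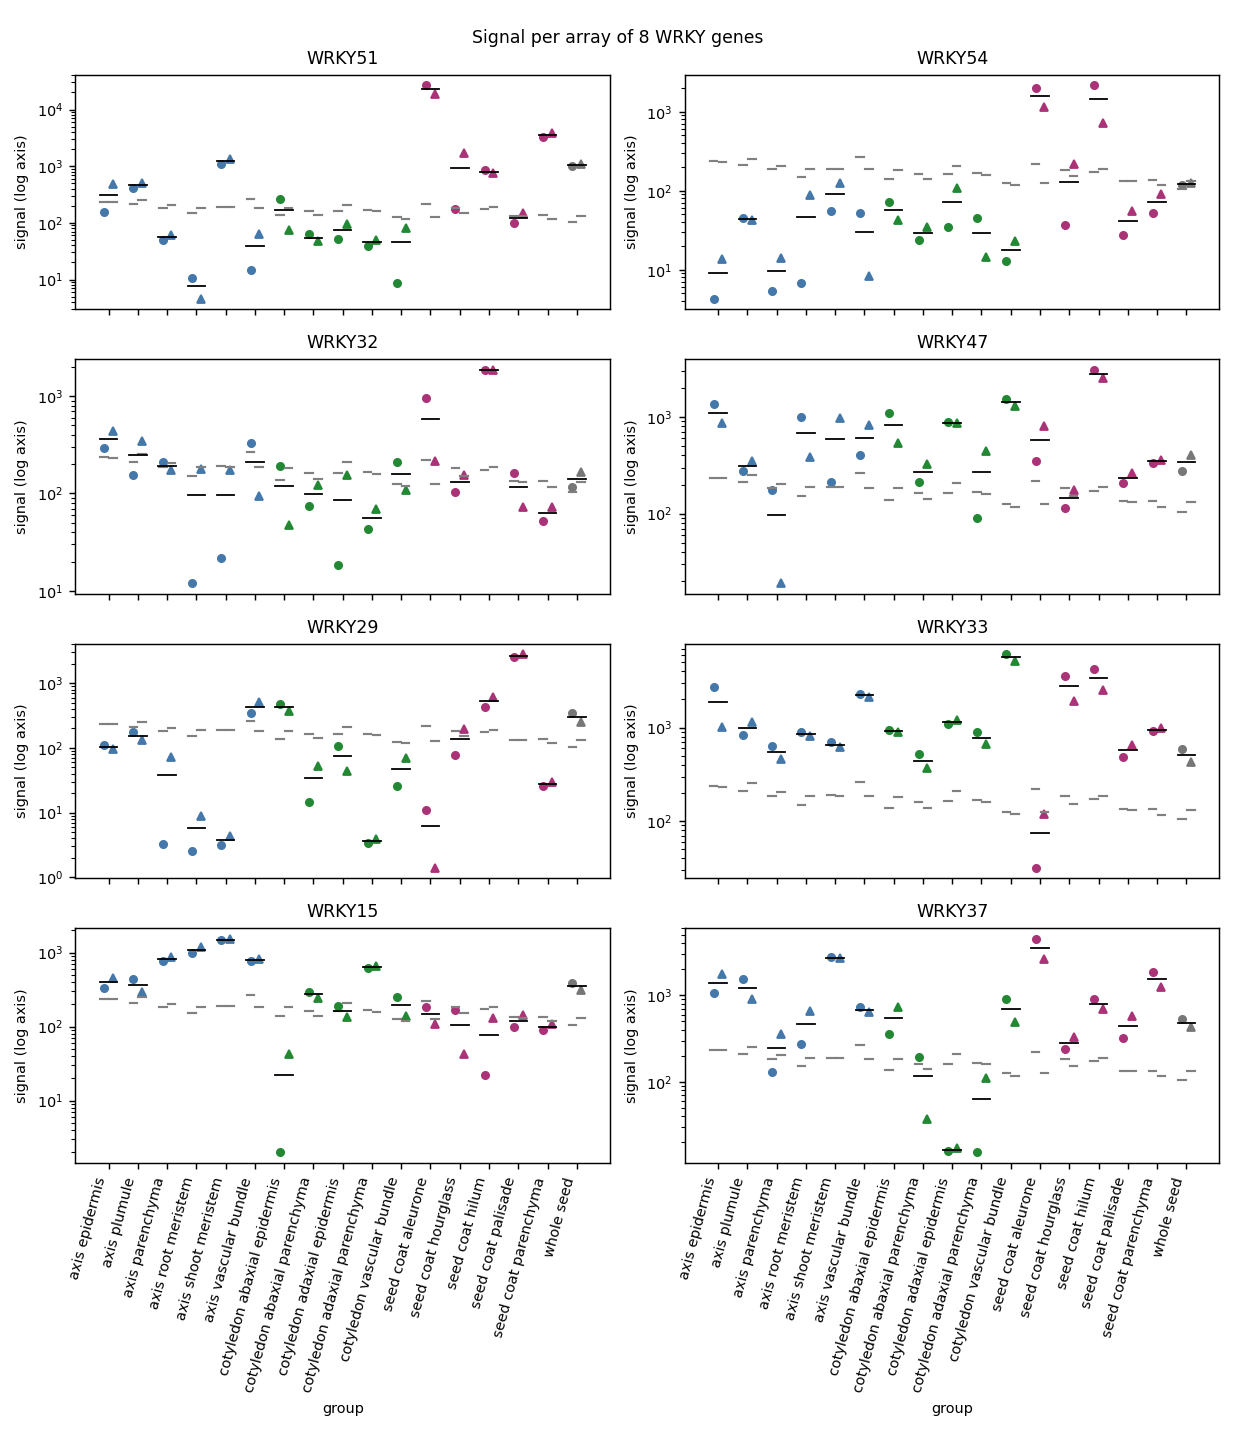
Signal on each of the 34 arrays (log axis) of 8 WRKY genes in the 17 groups (x axis); circles are replicate 1, triangles replicate 2, black bars group means and grey bars each array's background (axis blue, cotyledon green, seed coat purple, whole seed grey). By the probe sets used, WRKY51 peaks in the aleurone, WRKY54 in the aleurone and hilum, WRKY29 in the palisade and WRKY33 in the cotyledon vascular bundle. A second probe set of WRKY33 was highest in the palisade.

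WRKY33 and WRKY10 were enriched in the cotyledon vascular bundle by the probe sets used, but not by their second ones. WRKY33 was at 6079 and 5183 there, then 4244 and 2504 in the hilum, 3599 and 1936 in the hourglass layer, 2311 and 2107 in the axis vascular bundle and 2720.1 and 1026 in the axis epidermis. Intermediate values were 1092 and 1205 in the cotyledon adaxial epidermis, 950.3 and 896 in the abaxial epidermis, 839 and 1150.3 in the plumule, 931 and 979 in the seed coat parenchyma and 888 and 805 in the root meristem. The cotyledon adaxial (906 and 661) and abaxial parenchyma (517 and 366), shoot meristem (701 and 614), palisade (481 and 660) and axis parenchyma (633 and 464) were lower. The aleurone, at 31.8 and 119, was the only group in which WRKY33 did not exceed the background. The cotyledon vascular bundle difference was 2.65 ± 0.32 (6.30-fold, adjusted p = 1.18e-06 by limma). The second probe set of WRKY33 was highest in the palisade (1911 and 2476).

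WRKY10 was at 1088 and 1244 in the cotyledon vascular bundle, just above the cotyledon abaxial epidermis (1005 and 1045). It was at 883 and 891 in the shoot meristem, 881 and 740.2 in the cotyledon adaxial epidermis, 458 and 956 in the axis epidermis and 654 and 614 in the palisade. The remaining group means were 524 in the axis vascular bundle, 491 in the hilum, 488 in the aleurone, 471 in the hourglass layer, 466 and 284 in the cotyledon adaxial and abaxial parenchyma, 279 in the plumule, 263 in the axis parenchyma, 255 in the seed coat parenchyma and 150.1 in the root meristem. The difference was 1.35 ± 0.33 (2.56-fold, adjusted p = 0.00640 by limma). The call was lost without cotyledon vascular bundle replicate 1 (1.45, adjusted p = 0.083) or replicate 2 (1.26, adjusted p = 0.158). With 75th percentile scaling (1.23) or quantile normalization (1.25) the arrays no longer exceeded all others, and adjusted for the controls the difference was 1.24 (adjusted p = 0.0613).

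In the axis, WRKY15 was enriched in the shoot meristem and WRKY24 in the plumule, the latter by the probe set used and not by its other 2. WRKY15 was at 1459.5 and 1536 in the shoot meristem, 991 and 1181 in the root meristem, 769 and 867 in the axis parenchyma and 773 and 817 in the axis vascular bundle. The axis epidermis (336 and 457) and plumule (442 and 296) were lower. In the cotyledon it was highest in the adaxial parenchyma (611 and 656), then the abaxial parenchyma (298 and 246), vascular bundle (255 and 138), adaxial epidermis (189 and 135) and abaxial epidermis (2 and 42.8). Of the seed coat arrays 1 of 10 exceeded the background, a palisade array (99.1 and 143), and the aleurone (185 and 108), hourglass layer (169 and 42.5), parenchyma (90.5 and 109) and hilum (22.4 and 131) did not. The shoot meristem difference was 2.66 ± 0.43 (6.33-fold, adjusted p = 4.39e-05 by limma).

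WRKY24 was above the background everywhere, at 4589 and 4966 in the plumule and 3639.6 and 3399 in the axis vascular bundle. Its other means were 3215 in the hilum, 3021 in the cotyledon adaxial parenchyma, 2798 in the shoot meristem, 2605 in the palisade, 2550.2 in the axis epidermis, 2428 in the cotyledon vascular bundle and adaxial epidermis, 2316 in the aleurone, 2305 in the axis parenchyma, 2290 in the cotyledon abaxial epidermis, 2206 in the cotyledon abaxial parenchyma and 2162 in the root meristem. The seed coat parenchyma (1735) and hourglass layer (889) were lowest. The plumule difference was 1.04 ± 0.22 (2.06-fold, adjusted p = 0.00126 by limma). It fell to 0.98 without plumule replicate 2 (adjusted p = 0.0527) and to 0.68 when adjusted for the controls (adjusted p = 0.0921), and both plumule arrays had controls over 2 times the median.

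WRKY22, WRKY50 and WRKY9 differed strongly among compartments without a single peak. WRKY22 was at 8721 and 8088 in the shoot meristem, 7744 and 8356 in the aleurone and 7552 and 6799 in the seed coat parenchyma, and these 3 groups stood above the other compartments. It was at 5017 and 4662 in the cotyledon vascular bundle, 3565 and 4297 in the hourglass layer and 2328 and 3734 in the axis vascular bundle. The hilum (2859), axis epidermis (2695), palisade (2522), root meristem (2356), plumule (2325), cotyledon abaxial epidermis (2323), cotyledon adaxial parenchyma (2181), cotyledon adaxial epidermis (2111), axis parenchyma (1790) and cotyledon abaxial parenchyma (1724) had lower means.

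WRKY50 was highest in the axis epidermis (868 and 612) and shoot meristem (652 and 674), which overlapped. The hilum (532 and 563), plumule (476 and 488), palisade (394 and 559.8), axis vascular bundle (431 and 322), seed coat parenchyma (438 and 306) and aleurone (411 and 321) followed. Lower still were the root meristem (242 and 326), cotyledon abaxial epidermis (203 and 306), hourglass layer (307 and 199), cotyledon vascular bundle (219.9 and 208), axis parenchyma (144 and 283) and cotyledon adaxial epidermis (151 and 246). The cotyledon adaxial (127 and 144) and abaxial parenchyma (126 and 127) were below the background. WRKY50 and WRKY37 were the most alike pair of the family over the 16 compartment means (Pearson r = 0.779).

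WRKY9 exceeded the background on 6 arrays, 2 in the axis epidermis (389.6 and 335) and 1 each in the cotyledon abaxial epidermis (373 and 132), axis parenchyma (219 and 194), shoot meristem (161 and 212) and whole seeds (108 and 32.4). The cotyledon adaxial epidermis (132 and 144), root meristem (112 and 135), plumule (94.3 and 104) and hilum (76.3 and 102) were under it. Means in the palisade, aleurone, cotyledon adaxial parenchyma, seed coat parenchyma, hourglass layer and cotyledon abaxial parenchyma ran from 27.5 to 62.6. The cotyledon (5.8 and 19) and axis vascular bundle (7 and 3.8) were the lowest groups.

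Among the members without a full listing, WRKY48 had group means from 3528 in the shoot meristem to 10411 in the axis vascular bundle (median 6045), where the arrays were 15353 and 5469. WRKY4 had its highest mean in the seed coat parenchyma (3457, median 1371) and its lowest in the axis vascular bundle (466). WRKY59 ran from 302 in the hilum to 1306 in the cotyledon abaxial parenchyma (median 885), WRKY7 from 353 in the hourglass layer to 1293 in the axis epidermis (651), and WRKY23 from 267 in whole seeds to 839.9 in the hilum (533). WRKY58 was highest in the cotyledon adaxial epidermis (733 and 2333) and shoot meristem (218 and 1644), with a median group mean of 95.2 and the lowest, 4.35, in the palisade. WRKY39 was highest in the hilum (1188 and 1502), but its arrays lay up to 25.4-fold apart, in the axis vascular bundle (1801 and 70.9). WRKY16 was highest in the axis epidermis (1266 and 636) and lowest in the shoot meristem (31.5 and 39.8).

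The other 11 stayed near the background, with highest group means from 187 to 481. Among them WRKY60 reached 480.5 in the cotyledon vascular bundle, WRKY56 367 in the seed coat parenchyma, WRKY28 358 in the axis vascular bundle, WRKY36 355 in the axis epidermis, WRKY12 302 in the shoot meristem and WRKY8 298 in the aleurone. WRKY57 reached 277 in the root meristem, WRKY27, which has been tied to salt and drought tolerance in soybean, 265 in the cotyledon adaxial parenchyma, WRKY40, tied to resistance against Phytophthora sojae, 258 in the plumule, WRKY43 209.7 in the aleurone and WRKY30 187 in the axis vascular bundle. Their median group means ran from 41.0 (WRKY8) to 193 (WRKY56).

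The members followed no common pattern. Over the 16 compartment means the median correlation between 2 WRKY genes was 0.091 (666 pairs, from -0.738 to 0.779), and between a WRKY gene and any other probe set tested it was 0.017. After WRKY37 and WRKY50 the most alike were WRKY8 and WRKY41 (r = 0.743), WRKY32 and WRKY39 (0.741), WRKY22 and WRKY51 (0.740) and WRKY51 and WRKY54 (0.728). WRKY8 exceeded the background on only 3 of 34 arrays and passed the filter through its aleurone arrays. Since WRKY41 also peaks in the aleurone, the likeness of that pair was partly built into the choice of WRKY8. These compartment means share 2 arrays each, and the values are descriptions.

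The 3 organs were compared over compartment means, with 5 seed coat, 6 axis and 5 cotyledon compartments as the units. Few WRKY genes separated them. A gene was called at an adjusted p below 0.05 and a log2 difference of at least 1. In these bulk samples fewer cells of a type and less RNA per cell cannot be told apart. Against the axis, the seed coat had 2 WRKY genes higher and 1 lower, where 15.9% of all probe sets were called (7.49% higher and 8.37% lower). The median difference of the 37 was 0.07, against -0.08 over all probe sets tested.

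WRKY15 was lower in the seed coat, with 22.4 to 184.5 (median 108) on 10 arrays against 296 to 1536 (median 795) on the 12 axis arrays, which did not overlap. The log2 difference was -2.71 ± 0.58, at least 4.38-fold lower (adjusted p = 0.00383, limma on compartment means). WRKY4 was higher, at 908 to 3837 (median 2459.7) against 304 to 2251 (median 772), with overlap. Its difference was 1.31 ± 0.33 (2.47-fold, adjusted p = 0.0101), and 0.90 (adjusted p = 0.251) in a fit that adjusts for the hybridization controls. WRKY54 was higher by 2.51 ± 0.77 (adjusted p = 0.0298), with 27.3 to 2166 (median 154) in the seed coat against 4.3 to 123.9 (median 28.5) in the axis. No fold is given, since 5 of the 10 seed coat arrays were below the background. The call of WRKY54 ended without hourglass replicate 2 (2.30, adjusted p = 0.0597), and without the aleurone (1.87, 0.0681), hilum (1.93, 0.0799), axis epidermis (2.34, 0.0584), axis parenchyma (2.35, 0.0581) or axis vascular bundle (2.49, 0.0513) compartment. Adjusting for the controls also ended it (3.59, 0.0544) as did leaving out the 6 arrays with the brightest controls (2.52, 0.0696).

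Between seed coat and cotyledon only WRKY51 was called by the probe sets used, against 11.2% of all probe sets (5.33% higher and 5.89% lower). Its signals ran from 98.6 to 26832 (median 1269) on 10 seed coat arrays and from 8.7 to 261.7 (median 57.8) on 10 cotyledon arrays. The log2 difference was 4.15 ± 1.19, at least 7.66-fold (adjusted p = 0.0300 by limma). Its 2 dimmer probe sets gave 1.78 (adjusted p = 0.0760) and 1.70 (0.0832) and were not called. The same gene differed from the axis by 3.16 ± 1.14 (adjusted p = 0.0600). The call against the cotyledon ended without hourglass replicate 2 (3.83, 0.0538). It also ended without the aleurone (3.15, 0.0540), seed coat parenchyma (3.81, 0.0654), cotyledon abaxial parenchyma (4.11, 0.0589), adaxial epidermis (4.19, 0.0525), adaxial parenchyma (4.06, 0.0647) or vascular bundle (3.98, 0.0585) compartment.

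Between cotyledon and axis no WRKY gene was called by limma, against 1.50% of all probe sets. Unadjusted p was below 0.05 for 6 genes, and the lowest adjusted p was 0.0782. WRKY37 (-2.46 ± 0.85, adjusted p = 0.144), WRKY15 (-2.01 ± 0.58, adjusted p = 0.0825) and WRKY27 (1.27 ± 0.52, adjusted p = 0.219) had some of the largest differences. The median of the 37 was -0.22, against -0.07 over all probe sets.

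**Figure D4:**
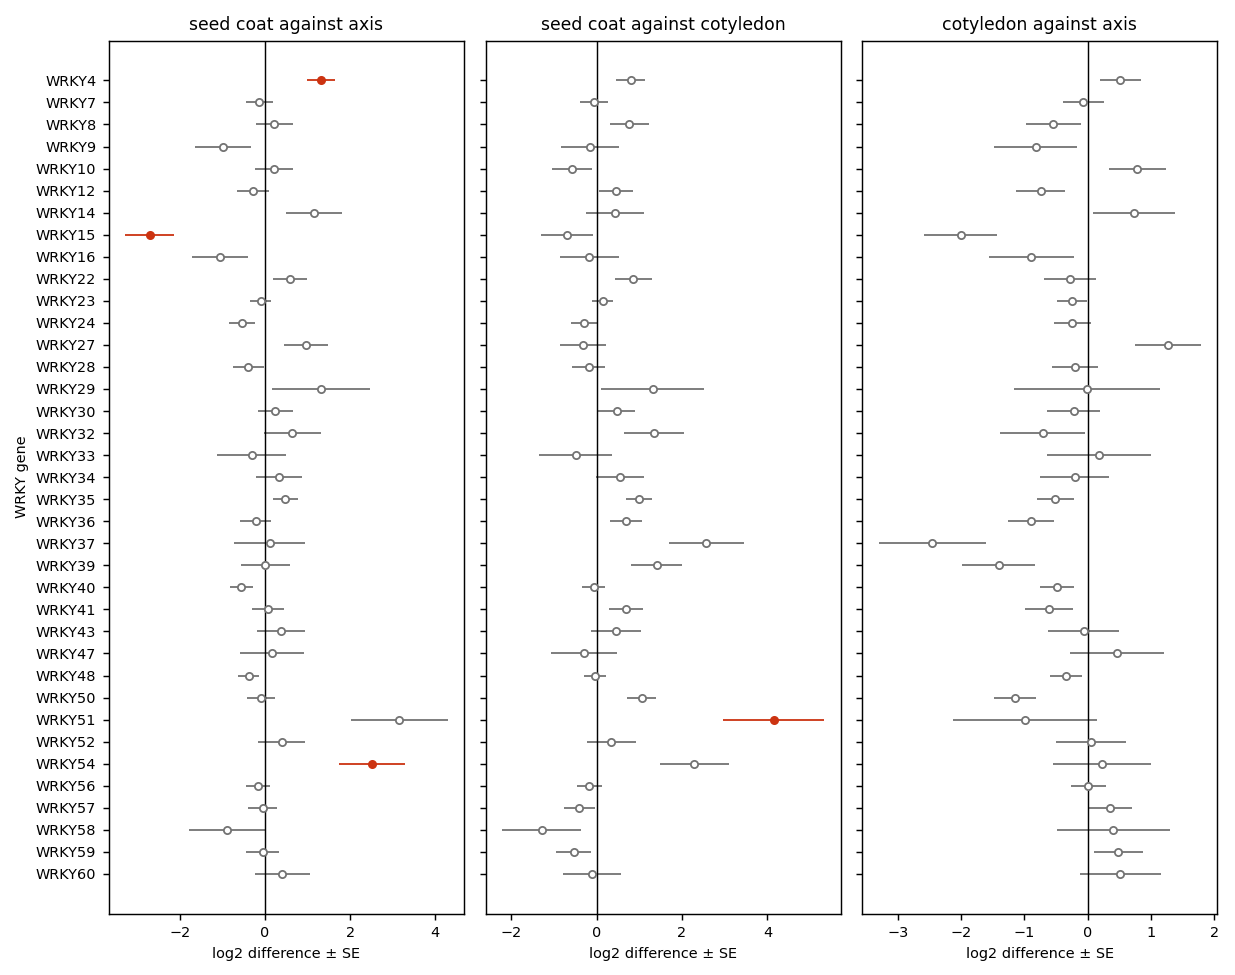
Log2 difference between organs of each of the 37 WRKY genes (rows), with SE as bars, from limma on 5 seed coat, 6 axis and 5 cotyledon compartment means; red filled points were called. WRKY15, WRKY4 and WRKY54 were called between seed coat and axis and WRKY51 between seed coat and cotyledon.

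Within each embryo organ, epidermis was set against parenchyma. In the axis 4 WRKY genes were higher in the epidermis and none lower, where 7.61% of all probe sets were called (3.34% higher and 4.26% lower). The median of the 37 was 0.53, against -0.02 over all probe sets. WRKY47 was at 1351 and 867 in the epidermis and 176 and 19.1 in the parenchyma, a difference of 3.74 ± 0.71 (at least 5.21-fold, adjusted p = 0.000953 by limma). WRKY37 was at 1055 and 1764 against 129 and 359 (2.56 ± 0.63, at least 5.02-fold, adjusted p = 0.0102), while its second probe set gave -0.23 (adjusted p = 0.873). WRKY50 was at 868 and 612 against 144 and 283 (1.77 ± 0.41, at least 3.03-fold, adjusted p = 0.00619), and WRKY33 at 2720.1 and 1026 against 633 and 464 (1.60 ± 0.44, 3.03-fold, adjusted p = 0.0218). For each of these genes the epidermis arrays stood above both parenchyma arrays.

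Each of these calls rested on single arrays. Fitted on the 4 arrays alone none of the 4 genes was called, with adjusted p of 0.0865 for WRKY47, 0.0942 for WRKY37, 0.207 for WRKY50 and 0.224 for WRKY33. With axis parenchyma replicate 2 left out WRKY47 was not called (2.51, adjusted p = 0.0683), nor was WRKY33 without axis epidermis replicate 1 (0.90, 0.315), axis parenchyma replicate 1 (1.82, 0.0536) or replicate 2 (1.38, 0.168). WRKY37 lost it without axis epidermis replicate 2 (2.20, 0.0793) or axis parenchyma replicate 1 (1.88, 0.173), and WRKY50 without axis epidermis replicate 1 (1.52, 0.0671) or axis parenchyma replicate 1 (1.32, 0.131). Adjusted for the controls, WRKY37 (2.10, 0.112) and WRKY50 (1.38, 0.0879) were lost. The axis epidermis arrays had controls at 3.33 and 3.24 times the median.

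In the cotyledon 7 WRKY genes were higher and 1 lower in the epidermis, against 11.9% of all probe sets called (5.94% higher and 5.98% lower). The median of the 37 was 0.21, against -0.02. WRKY29 was higher by 2.69 ± 0.45 (adjusted p = 7.07e-05 by limma), with 476 and 372 in the abaxial epidermis and 106 and 44.3 in the adaxial epidermis. Both parenchyma sides were at most at 52.6, so the call rests on the abaxial side, and no fold is given because 2 of the 4 epidermis arrays were below the background. WRKY15 was lower in the epidermis by -2.51 ± 0.41 (at least 2.22-fold, adjusted p = 6.52e-05). WRKY9 was higher by 1.96 ± 0.47 (adjusted p = 0.00391, no fold, mostly below background), WRKY52 by 1.82 ± 0.44 (3.52-fold, 0.00435), WRKY10 by 1.29 ± 0.32 (2.45-fold, 0.00522) and WRKY35 by 1.18 ± 0.30 (2.26-fold, 0.00682).

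WRKY14 (2.11 ± 0.63, at least 3.08-fold, limma adjusted p = 0.0209) and WRKY47 (1.75 ± 0.50, 3.37-fold, adjusted p = 0.0160) completed the cotyledon epidermis set. WRKY14 lost its call without cotyledon abaxial epidermis replicate 1 (2.01, adjusted p = 0.0668), abaxial parenchyma replicate 2 (1.60, 0.141), adaxial epidermis replicate 2 (1.95, 0.0753) or adaxial parenchyma replicate 2 (2.03, 0.0674). WRKY47 lost it without abaxial epidermis replicate 1 (1.49, 0.0850), abaxial parenchyma replicate 1 (1.60, 0.0682) or adaxial parenchyma replicate 1 (1.22, 0.143), and WRKY35 without adaxial epidermis replicate 2 (0.87, 0.0698). WRKY47 was the gene called in both organs. The difference between organs in this contrast was tested as an interaction. It was called for none of the 37 by limma (9 at an unadjusted p below 0.05, lowest adjusted p = 0.117, WRKY27), against 3.35% of all probe sets.

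Vascular bundles were compared with the same parenchyma arrays, so these values share their baseline with the epidermis values of the organ. In the axis 3 WRKY genes were higher and 2 lower in the bundle, against 7.22% of all probe sets called (3.57% higher and 3.65% lower). WRKY29 was at 343 and 506 against 3.3 and 71.7 (3.40 ± 0.63, at least 2.05-fold, adjusted p = 0.000671 by limma), but its second probe set was not called (1.96, adjusted p = 0.121). WRKY47 was at 399.6 and 816 against 176 and 19.1 (2.84 ± 0.71, at least 2.79-fold, adjusted p = 0.0114), and WRKY33 at 2311 and 2107 against 633 and 464 (1.99 ± 0.44, 3.98-fold, adjusted p = 0.00374). WRKY16 was at 57.3 and 55.1 against 681 and 566 (-3.14 ± 0.78, at least 2.68-fold lower, adjusted p = 0.0100). WRKY9 was at 7 and 3.8 against 219 and 194 (-3.38 ± 0.67, adjusted p = 0.00125), with no fold since the parenchyma had 1 array above the background.

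Fitted on the 4 arrays alone, WRKY29 (adjusted p = 0.0932) and WRKY47 (0.170) were not called. Leaving out axis parenchyma replicate 2 ended the calls of WRKY47 (1.61, adjusted p = 0.308) and WRKY33 (1.78, 0.062), and leaving out the second bundle array that of WRKY47 (2.34, 0.099). WRKY16 was lost without axis parenchyma replicate 1 (-3.01, 0.0784), replicate 2 (-3.27, 0.053), or the first bundle array (-3.16, 0.0631; 0.0764 without all 6 arrays with the brightest controls), whose controls stood at 2.71 times the median. The summed signal of the 7 sieve element genes was 1011 to 1577 in the axis bundle and 546 to 657 in the axis parenchyma. In the seed coat parenchyma it was 16071 to 17486. In the axis bundle only SEOF and SEOA exceeded the background, on 1 array each, and the lower sum there was made up of signals below it.

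In the cotyledon bundle 7 WRKY genes were higher and none lower, against 10.7% of all probe sets (6.65% higher and 4.03% lower). The summed sieve element signal was 1248 to 1681 in the bundle and 639 to 945 in the parenchyma. In this bundle SEOF exceeded the background on both arrays, SEOA, SEO-F3, SEOM and SEOS on 1 each, and SEOE and SEOC on none. WRKY33 had the largest difference, at 6079 and 5183 in the bundle against 366 to 905.9 on 4 parenchyma arrays, a difference of 3.24 ± 0.38 (9.43-fold, adjusted p = 5.23e-07 by limma). WRKY37 was higher by 3.07 ± 0.55 (at least 3.80-fold, adjusted p = 0.000199), though not by its second probe set (0.39, adjusted p = 0.753), WRKY10 by 1.64 ± 0.39 (3.12-fold, 0.00454) and WRKY22 by 1.33 ± 0.27 (2.51-fold, 0.000897). WRKY14 was higher by 2.63 ± 0.77 (at least 4.44-fold, 0.0222), WRKY60 by 2.57 ± 0.66 (at least 2.58-fold, 0.00814) and WRKY47 by 2.53 ± 0.62 (5.77-fold, 0.00542).

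Without cotyledon vascular bundle replicate 2, WRKY10 (1.55, limma adjusted p = 0.0782), WRKY14 (2.77, 0.117) and WRKY60 (1.89, 0.238) lost their calls. Without replicate 1 of the bundle WRKY47 (2.41, 0.0778) and WRKY14 (2.50, 0.170) did. WRKY14 was also lost without abaxial parenchyma replicate 2 (2.13, 0.104) or adaxial parenchyma replicate 2 (2.55, 0.0571). WRKY33 and WRKY47 were called in the bundles of both organs by the probe sets used, but the second probe set of WRKY33 was not called in the axis (0.97, adjusted p = 0.310).

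Of the 37, only WRKY60 differed between the organs in this contrast by the probe sets used, against 3.04% of all probe sets, in a test added after values had been seen. In the cotyledon it was at 263 and 698 in the bundle, 7.7 and 65.4 in the abaxial and 95.8 and 132 in the adaxial parenchyma. In the axis it was at 33.4 and 24.5 in the bundle and 181 and 116 in the parenchyma, where the lower bundle value did not pass the test (-1.85 ± 0.76, limma adjusted p = 0.159). The interaction was 4.42 ± 1.01 (adjusted p = 0.0105). It was lost without axis parenchyma replicate 1 (4.13, 0.0594) or cotyledon vascular bundle replicate 2 (3.74, 0.112), and the axis arrays of WRKY60 were below the background. The second probe set of WRKY33 also differed (2.60 ± 0.68, adjusted p = 0.0315), where the one used did not pass (1.24, adjusted p = 0.344).

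**Figure D5:**
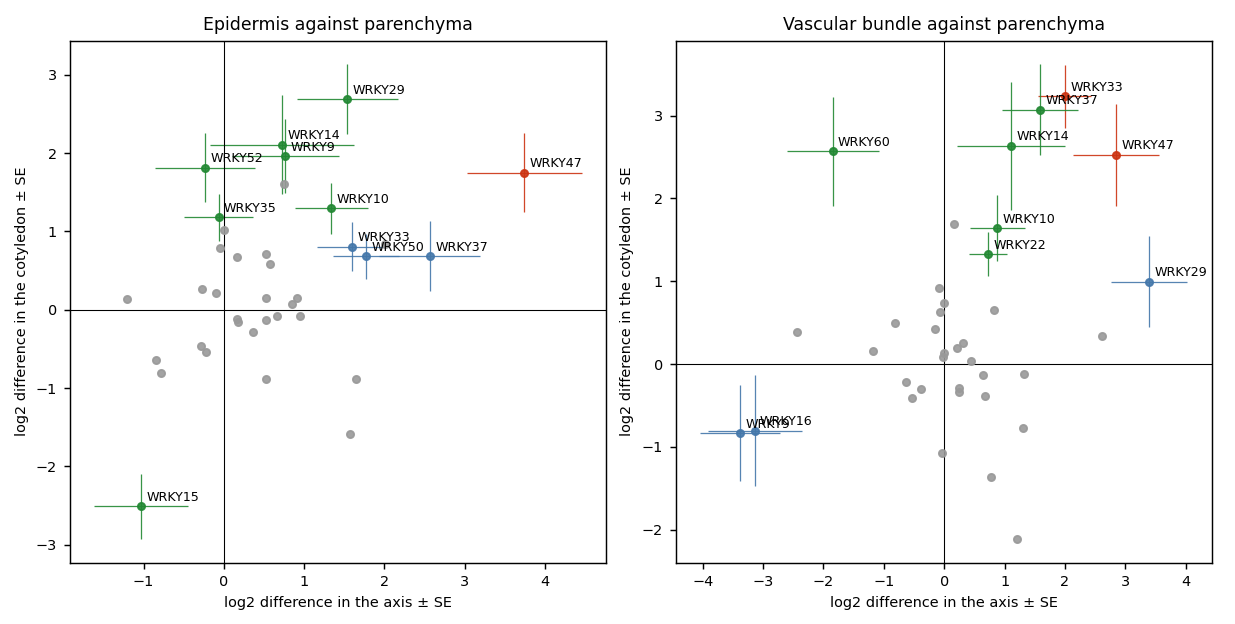
Log2 difference from the parenchyma of the same organ in the axis (x axis) and the cotyledon (y axis) of the 37 WRKY genes, for epidermis (left) and vascular bundle (right), with SE for called genes; red points were called in both organs, blue in the axis, green in the cotyledon, grey in neither. WRKY47 was called in both panels in both organs, and WRKY33 in both vascular bundles, by the probe sets used.

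Whole seeds were set against the mean of the 16 compartments, and 3 WRKY genes were called, against 19.3% of all probe sets. Calls are of log2 means, and for WRKY51 and WRKY29 they did not carry over to mean signals, so no fold is given. WRKY51 was at 1010.3 and 1085 in whole seeds, with a log2 mean above that of the compartments (2.10 ± 0.54, adjusted p = 0.00473 by limma) but a mean signal 0.548 times theirs (1048 against 1911). WRKY29 was at 345 and 249, with a higher log2 mean (1.67 ± 0.46, adjusted p = 0.00753) and a mean signal 1.01 times as high (297 against 293). WRKY23 was lower on both scales, at 286 and 249 (-1.0 ± 0.26, 2.01-fold lower, adjusted p = 0.00446; mean signal 267 against 570.1), though its other 2 probe sets were not called. The median of the 37 was -0.27, against 0.01 over all probe sets.

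For the other members shown above, whole seed signals were 4899 and 4786 for WRKY22, 2026 and 1983 for WRKY24, 1033 and 694 for WRKY35, 589 and 434 for WRKY33, 528 and 431 for WRKY37, 277 and 408 for WRKY47, 314 and 265 for WRKY52 and 352 and 298 for WRKY41. They were 506 and 397 for WRKY10, 388 and 316 for WRKY15, 341 and 278 for WRKY14, 148 and 194 for WRKY50, 118 and 166 for WRKY32 and 50.4 and 126 for WRKY34. Whole seeds were ground and extracted with another reagent and had the dimmest hybridization controls. Preparation and tissue mix cannot be told apart there. Adjusted for the controls, none of the 3 was called by limma (WRKY51 1.29, adjusted p = 0.491, WRKY29 1.26, 0.408, and WRKY23 -0.70, 0.405). Whole seed controls (0.307 to 0.356 times the median) lay below those of every compartment array (at least 0.578). This fit therefore extrapolates for whole seeds and cannot settle whether the calls depend on the controls. Without whole seed replicate 1 or 2, WRKY51 (2.15, 0.060, and 2.05, 0.102) and WRKY29 (1.45, 0.143, and 1.90, 0.0687) lost their calls, as WRKY23 did without replicate 2 (-0.91, 0.125). WRKY23 lies at the fold threshold, and leaving out any of 12 compartment arrays brought it just under that threshold.

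Some WRKY genes have several probe sets, and these did not always tell the same story. The probe sets of WRKY52 (r = 0.882 over 34 arrays), WRKY29 (0.871) and WRKY51 (0.847 and 0.713) followed those used. For WRKY48 the bright probe set used here was unrelated to its other 2 (r = 0.047 and 0.051), which were enriched in the hilum. They read 845.2 to 922 and 3947 to 5529 there and at most 313.8 and 1220 elsewhere, with differences of 4.57 ± 0.51 (adjusted p = 7.38e-08 by limma) and 5.85 ± 0.53 (adjusted p = 2.29e-09). Both were also called higher in the seed coat than in the axis (2.90, adjusted p = 0.00235, and 3.15, 0.0173) and than in the cotyledon (2.65, adjusted p = 0.00840, and 3.35, 0.0224), which the bright one was not. Which of these probe sets reads WRKY48 was not tested. For WRKY56 the probe set used did not pass the F test, while its other 3 were enriched in the seed coat parenchyma, as 3.23% of all probe sets were. They read 451 to 1411 there and at most 223.4 elsewhere, with differences of 3.56 ± 0.69, 4.24 ± 0.56 and 4.09 ± 0.49 (adjusted p = 0.000232, 1.52e-06 and 2.98e-07). None of these 3 would have passed the background filter without the seed coat parenchyma arrays, so this peak was built into their choice. The second probe set of WRKY33 (r = 0.641) was above the background on 30 arrays, was highest in the palisade (1911 and 2476), where the one used was among its lower groups, and was not enriched in the cotyledon bundle. It was called there (3.57 ± 0.45, adjusted p = 1.46e-06) and in the epidermis of the axis (2.38, adjusted p = 0.00345) and the cotyledon (3.01, adjusted p = 7.03e-07). That of WRKY37 (r = 0.494) did not pass the F test (adjusted p = 0.658). Of 16 calls in comparisons of organs, layers or whole seeds for genes with further probe sets, 7 were shared by all of these, 1 by some and 8 by none, the last being WRKY4, WRKY51, WRKY37 (2 calls), WRKY33, WRKY29, WRKY22 and WRKY23. Of 8 such enriched genes, WRKY51, WRKY32 and WRKY29 were enriched by all their probe sets, and WRKY10, WRKY24, WRKY33, WRKY34 and WRKY52 only by the one used.

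Probe sets of WRKY28 (r = 0.020), WRKY34 (0.169) and WRKY4 (-0.157 and 0.609) also parted. The levels of WRKY16, WRKY39, WRKY56 and WRKY58 come from probe sets whose suffix marks possible matches to similar transcripts.

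Genes that act with WRKY factors in defence signalling were few on the array's single-gene probe sets. Of 10 tested, 3 were in MAP kinase cascades, which phosphorylate WRKY factors, 6 in resistance signalling and 1 was pathogenesis-related. NDR1A, a membrane protein of resistance signalling, was higher in the cotyledon epidermis than in the parenchyma, at a mean of 2499 against 609 (1.97 ± 0.45, 3.93-fold, adjusted p = 0.00221 by limma). EDS1-2, a lipase-like regulator of immunity, was higher in whole seeds (242 against 104, difference 1.55 ± 0.56, at least 1.24-fold, adjusted p = 0.0414 by limma). Whole seeds were prepared differently and had the dimmest hybridization controls, and this call was not tested with the controls adjusted for. None of the 10 was called in the other comparisons of organs and layers. Among compartments 5 of the 10 differed by the F test, against 63.4% of all probe sets, and 3 were enriched in 1 compartment, against 26.0%. PR-10, a pathogenesis-related gene, was enriched in the aleurone (mean 1029, difference 4.42 ± 0.60, adjusted p = 2.62e-06 by limma), as 2.81% of all probe sets were. Its mean was 54.8 in the axis, 37.2 in the cotyledon and 90.4 in whole seeds, under the lowest background of any array (104.3). Whether PR-10 would have passed the background filter without its aleurone arrays was not tested. MPK4B was enriched in the plumule (3606, 1.57 ± 0.24, adjusted p = 4.64e-05) and NDR1A in the cotyledon adaxial epidermis (3566, 2.33 ± 0.46, adjusted p = 0.000696).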

How the data were processed

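The authors deposited probe set intensity on a linear scale for 34 arrays, made with GCOS 1.3 per the submitters' processing notes. The algorithm within that software is not given in the sources used here. Per the labels' protocols, amplified cRNA from 2 ng of total RNA was put on Affymetrix soybean arrays. The mean of each array, with 2% of probe sets set aside at either end, was 500.1, which shows scaling to a common mean. Amplification and scaling make levels relative within an array, and the number of arrays limits the precision.

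Values were used as deposited, as log2 of intensity plus 16. Of 37593 soybean probe sets, 28441 exceeded the 95th percentile of the pathogen probe sets on at least 2 arrays and were tested. Gene symbols came from the platform's probe-to-gene table, and 6 WRKY probe sets tied to several genes were left out. Organs were compared on 16 compartment means and other contrasts in 1 fit of 17 groups, with limma 3.58.1 (R 4.3.3, eBayes with trend) and Benjamini-Hochberg adjustment over all probe sets tested. The fits were tested on simulated data. Every gene called in a comparison is named; signals in all groups are given for the 12 genes with the largest F and for enriched genes. Figures were drawn with matplotlib from these tables.

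The WRKY genes, the lists and the tests were chosen with earlier results of these data known. The vascular bundle interaction, the fits without the 6 arrays with bright controls, the shares of peaks by compartment and the description of further probe sets were added after values were seen. Alternatives were the pseudocount, the filter, the scaling, a replicate block, the control level as a covariate, the arrays compared alone, every WRKY probe set, and leaving out each array or compartment. Protein and promoter sequences were not used here.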

Additional observations from a re-analysis of the deposited data

Results flagged for a closer look

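WRKY60 differed between the organs in the contrast of vascular bundle with parenchyma, in a test added after values had been seen. The log2 difference from the parenchyma was 2.57 ± 0.66 in the cotyledon and -1.85 ± 0.76 in the axis, and the test of their difference gave 4.42 ± 1.01 (limma adjusted p = 0.0105). The axis difference was not called, and the axis arrays were below the background. The call of the interaction was lost without axis parenchyma replicate 1 (4.13) or cotyledon vascular bundle replicate 2 (3.74). The WRKY60 probe set exceeded the background on 7 of 34 arrays. Groups of 2 arrays are too small for a test of outlying arrays.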

How the results depend on the processing

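Of 2951 repeats of the 70 gene results, 2851 kept the direction and the side of the threshold, 100 fell short of it and 0 reversed, and 39 of the 70 kept their call throughout. Most of these repeats left out 1 array. For a contrast of layers that array mostly lay outside the groups compared, so the total overstates how far such calls hold. WRKY33 in the axis epidermis kept its call in 37 of 41 repeats, but lost it without either axis parenchyma array. Pseudocount 1, no filter and the replicate block each ended 0 of the 70 calls, 75th percentile scaling 3, quantile normalization 2, the control level as a covariate 11, leaving out the 6 arrays with bright controls 3 of 62, and fitting the arrays compared alone 6 of 25. Scaling moved the median of all probe sets by at most 0.07 (log2). Replicate numbers showed no strong pairing of the arrays: deviations of groups correlated at -0.087 to 0.153, above 0.1 in 4 of 136 pairs. Whether compartments share seeds cannot be told from these correlations. The replicate block added replicate number as a term. For the organs it also took the 32 compartment arrays as units in place of the 16 compartment means, with compartment as a random block. That fit gave 4 called genes between seed coat and cotyledon (reported 1) and 3 between cotyledon and axis (reported 0). The replicate term and the change of unit cannot be told apart in these counts. Elsewhere the count was within 1.5 times the reported one.

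Counts of called genes that moved by more than 1.5 times were as follows. Between seed coat and axis every WRKY probe set gave 6 (reported 3). Between seed coat and cotyledon (reported 1), pseudocount 1, 75th percentile scaling and every WRKY probe set each gave 2. For the axis epidermis (reported 4), the control covariate gave 2 and the arrays alone 0. For the axis vascular bundle (reported 5), the arrays alone gave 3. For whole seeds (reported 3), 75th percentile scaling and every WRKY probe set gave 5 and the control covariate 0. The interaction for vascular bundles (reported 1) gave 2 with every WRKY probe set. The causes were not tested.

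Leaving out 1 array gave 2 to 4 called genes between seed coat and axis, 1 to 3 between seed coat and cotyledon, 0 to 1 between cotyledon and axis, 1 to 5 in the axis epidermis, 6 to 9 in the cotyledon epidermis, 2 to 6 in the axis vascular bundle and 4 to 7 in the cotyledon vascular bundle. It gave 0 to 1 and 0 to 2 for the interactions of epidermis and vascular bundle, 0 to 4 in whole seeds, 24 to 28 by the F test and 12 to 17 enriched. Leaving out 1 compartment gave 2 to 4, 0 to 4 and 0 to 1 for the 3 comparisons of organs. Where an array was left out, the group's lone array was assumed to vary like the other groups.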

Other observations

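WRKY41 and WRKY51, both enriched in the aleurone, lie near each other on chromosome 3 in the RefSeq annotation, with 7 annotated genes between them. This pair was picked after values were seen. Over the 16 compartment means the correlation of their levels was 0.442. No other pair of the 37 genes had 20 or fewer annotated genes between its members.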
